A study of Rattus norvegicus with 20 samples.

Results

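Templated 3′ shortened isomiRs are miRNA reads that match the reference miRNA from its first base and stop 1 or more bases before its last base. They were taken as every listed sequence with no mismatch, no added base and no change at the 5′ end, whose 3′ end lacks bases of the reference. There were 1146 such isomiRs among 67859 isomiRs in all, from 485 of 617 miRNAs with any read. Of these, 455 had lost 1 base, 392 had lost 2 and 299 had lost 3, and no longer loss was listed. The shortened share of a miRNA is the percentage of shortened reads among its reads without a mismatch, an addition or a 5′ change. The rest of those reads were of full length or carried extra bases of the hairpin at the 3′ end, called extended here.

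Small RNA of the adBNST, the anterodorsal part of the bed nucleus of the stria terminalis in the forebrain, which is studied for anxiety, was sequenced in 20 Sprague-Dawley rats. After weaning on postnatal day 21, rats lived alone (socially isolated, SI) or with same-sex littermates in groups of 3 (group housed, GH) for 6 weeks, and were tested on the elevated plus maze at 9 weeks of age. There were thus 4 groups of 5 rats each (GH or SI, male or female), and 215 ng of RNA entered each library, made with 22 PCR cycles. A punch mixes neurons, glia and vessels, so fewer cells of a type and less RNA per cell cannot be told apart. The labels name each rat by a number within its group, and for the 2 SI rats numbered 17 the deposited names give the opposite sex to the labels, which were followed here.

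A miRNA is cut from its hairpin by the enzymes Drosha and Dicer and loaded into an Argonaute protein, which it guides to mRNAs mostly through its seed, the stretch of bases that starts at the second base. The 3′ end takes less part in target choice and can be shortened by exonucleases or by a shifted cut, and lengthened by transferases that add single bases. A read that lacks 3′ bases therefore keeps the seed of its miRNA.

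The references below are the full-length reads as the files list them, in DNA letters. Capitals at the start mark the seed (bases 2 to 8), and capitals at the end mark the bases missing from the most read shortened form of that miRNA. The first set shows 9 of the 10 most read miRNAs, since miR-26a-5p stands in the second set, with let-7i-5p and miR-351-5p added as partners that have the seed of let-7 and of miR-125.

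let-7a-5p: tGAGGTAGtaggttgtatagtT
let-7c-5p: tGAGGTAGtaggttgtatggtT
let-7f-5p: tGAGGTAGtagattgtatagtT
let-7g-5p: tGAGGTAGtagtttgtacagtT
let-7i-5p: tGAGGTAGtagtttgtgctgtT
miR-125a-5p: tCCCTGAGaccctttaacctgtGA
miR-125b-5p: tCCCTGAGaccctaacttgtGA
miR-351-5p: tCCCTGAGgagccctttgagcctGA
miR-9a-5p: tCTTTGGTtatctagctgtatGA
miR-7a-5p: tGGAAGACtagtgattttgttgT
miR-128-3p: tCACAGTGaaccggtctcttT

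The second set shows, beside let-7i-5p, the miRNAs whose shortened share differed between SI and GH rats, with miR-181b-5p as the partner that has the seed of miR-181a-5p.

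miR-676: cCGTCCTGagcttgtcgagctA
miR-99a-5p: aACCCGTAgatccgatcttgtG
miR-181a-5p: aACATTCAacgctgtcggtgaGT
miR-181b-5p: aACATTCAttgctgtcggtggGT
miR-125b-2-3p: aCAAGTCAggctcttgggaccT
miR-26a-5p: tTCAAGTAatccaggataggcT
miR-384-3p: aTTCCTAGaaattgttcacaAT
miR-23a-3p: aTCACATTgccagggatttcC
miR-129-5p: cTTTTTGCggtctgggcttgC

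The third set holds the extremes, 3 miRNAs that were read almost only in shortened form and 2 that were almost never shortened.

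miR-6331: cTTTGGTGgcttagttctttgtGC
miR-29b-3p: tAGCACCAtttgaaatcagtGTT
miR-338-5p: aACAATATcctggtgctgagtG
miR-543-3p: aAACATTCgcggtgcacttCT
miR-770-5p: aGCACCACgtgtctgggccacG

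In these sets the let-7 members lose a final T, and miR-125a-5p, miR-125b-5p, miR-351-5p and miR-9a-5p each lose GA. Of the 283 miRNAs measured well enough for a share (a mean of at least 100 such reads per library), 261 had a mature sequence of the same name and letters in the RefSeq annotation of GRCr8, and 22 had no entry of that name. Of 1092 shortened isomiRs whose full-length read was also listed, 1092 gave that read when the lost bases were added back. The shortest shortened read had 18 bases.

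In GRCr8 the miR-676 sequence lies on chromosome X at 69504650 to 69504671 within the span of Eda, and miR-384-3p on chromosome X at 74490899 to 74490920 within that of a long noncoding RNA. The single locus of miR-26a-5p is on chromosome 8 at 127633063 to 127633084, within Ctdspl. let-7i-5p lies on chromosome 7 at 60527935 to 60527956, within an unnamed protein-coding gene, miR-23a-3p on chromosome 19 at 40859778 to 40859798, and miR-125b-2-3p on chromosome 11 at 29732627 to 29732648 within a long noncoding RNA. miR-181a-5p has a copy on chromosome 3 at 43025601 to 43025623, within Nr6a1, and a copy on chromosome 13 at 52037081 to 52037103. miR-129-5p likewise has a copy on chromosome 3 at 100657448 to 100657468 and one on chromosome 4 at 58589716 to 58589736. Reads of 2 copies with the same mature sequence cannot be told apart.

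Libraries held between 3436585 and 11406397 reads assigned to miRNAs, and 77.6% to 79.7% of them had no mismatch, addition or 5′ change. SI female 16 and SI male 17 had the lowest shares of extended reads, at 9.71% and 11.1% of that set against 11.8% to 14.6% in the other 18 libraries. They also listed the fewest shortened isomiRs, 438 and 508, against 547 to 860 in the others. Of the marker lists, the endothelial and mural miRNAs (miR-126a-3p, miR-126a-5p, miR-143-3p and miR-145-5p) summed to 10579 to 17294 CPM (counts scaled to the same library total) in GH males and 4356 to 6926 in SI males, and to 13270 to 26531 in GH females and 1774 to 15392 in SI females. The 4 blood miRNAs summed to 1054 to 1403 in GH males and 1359 to 3151 in SI males, and to 960 to 1443 in GH females and 1399 to 3360 in SI females. The 10 neuronal miRNAs, which include miR-124-3p and miR-9a-5p, summed to between 87198 and 229160 CPM over the 20 libraries. The oligodendrocyte, microglia and immune, and choroid and ependymal lists overlapped between GH and SI rats in both sexes, and no marker was at 0 in every library. The part of these shifts in the results below was not tested.

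Shortened reads made up about the same part of every library. The pooled shortened share was 27.9% ± 0.71 (SD, n = 20), with a range of 26.9% to 29.8%, while full-length reads took 58.8% ± 1.49 and extended reads 13.3% ± 1.24. Of the shortened reads, 62.3% ± 1.34 had lost 1 base, 34.3% ± 1.22 had lost 2 and 3.41% ± 0.346 had lost 3. Reads were concentrated in few sequences, since the 10 most read shortened isomiRs held 53.3% of 28391017 shortened reads. At the other end, 168 shortened isomiRs were listed in 1 library and 361 had fewer than 100 reads in all, while 314 were listed in all 20 libraries.

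Individual miRNAs differed far more than libraries did. Over the 283 miRNAs the mean shortened share had a median of 21.2% and quartiles of 8.59% and 47.1%. The share exceeded 50% in 65 miRNAs and 80% in 29, and was under 5% in 46. The most read form was shortened in 62 miRNAs, of full length in 176 and extended in 45. The SD of a share over the libraries had a median of 5.48 percentage points over the 283 miRNAs and of 3.20 among the 165 with a mean of at least 1000 reads, and it reached 13.7 in miR-181c-5p and 26.3 in miR-376a-3p. In 226 of 283 miRNAs the most read shortened form lacked 1 base, in 51 it lacked 2, and in 6 it lacked 3.

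Among the 10 most read miRNAs, miR-125a-5p was shortened most, at 85.1% ± 1.13 (SD, n = 20). The form without GA held 61.3% of its reads and the form without A another 21.5%. miR-9a-5p, a miRNA of neural progenitors and neurons, followed with 62.6% ± 1.37, split into 32.3% that had lost GA and 29.3% that had lost A. For miR-125b-5p the share was 47.5% ± 3.39, and the form without GA (27.001%) again exceeded the form without A (18.9%). miR-351-5p, which has the seed and the final GA of miR-125, had a share of 93.7% ± 4.44, so these seed relatives ran from 47.5% to 93.7%.

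The let-7 family, which restrains growth programmes in differentiated cells, kept within a narrow band. All 9 members measured (with miR-98-5p) lay between 15.8% ± 1.72 for let-7i-5p and 32.9% ± 1.31 for let-7e-5p, with a median of 22.3%, and the loss of a final T was the main shortened form in each. let-7c-5p, the most read of them, stood at 17.2% ± 0.774 and let-7a-5p at 25.4% ± 0.998. The next members in that order, let-7f-5p at 22.3% ± 0.942 and let-7g-5p at 23.9% ± 1.23, differed by about the spread between libraries.

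The remaining most read miRNAs were shortened little. miR-26a-5p was at 10.6% ± 2.62, miR-7a-5p at 9.43% ± 0.897 and the neuronal miR-128-3p at 8.83% ± 0.665. In miR-7a-5p, 46.2% of the reads were extended instead.

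The highest shares among the 165 well-read miRNAs belonged to miR-6331 (99.97% ± 0.145), miR-29b-3p (93.8% ± 5.60 over the 19 libraries that read it), miR-351-5p and miR-338-5p (93.1% ± 1.47), followed by miR-125a-3p, miR-124-3p, miR-212-5p, miR-423-5p, miR-653-3p and miR-143-3p, down to 86.3% ± 3.25. miR-124-3p, the most specific neuronal miRNA, lost its final C in 85.6% of reads, and miR-338-5p, which is abundant in oligodendrocytes, lost its final G in 91.0%. In miR-29b-3p the form without GTT held 64.1% of reads, the form without TT 17.2% and the form without T 12.5%. Since these 10 miRNAs were chosen for their high shares, their full-length reads were necessarily fewer than their shortened reads.

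The lowest shares were those of miR-543-3p (0.223% ± 0.175), miR-770-5p (0.422% ± 0.300), miR-222-3p, miR-148a-3p and miR-382-3p (1.09% ± 0.704). Extended reads took between 86.4% and 95.3% of the reads in these 5 miRNAs, so their main 3′ end lay beyond the reference.

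Families with similar sequences did not always share their level of shortening. The miR-29 family, which targets collagens and other matrix genes, was high in all 3 members, from 67.0% ± 4.77 (miR-29a-3p) to 93.8%, and the 5 miR-30 members were all low, from 2.57% ± 0.714 (miR-30c-5p) to 9.40% ± 1.82 (miR-30d-5p). The miR-181 family spread from 15.9% ± 13.7 (miR-181c-5p) to 69.5% ± 5.98 (miR-181a-5p), although all 4 members had the loss of GT as their main shortened form. miR-27a-3p stood at 78.5% ± 9.14 and miR-27b-3p at 31.1% ± 3.04, while miR-23a-3p and miR-23b-3p were close, at 4.70% ± 2.06 and 4.30% ± 1.05. Without their last 3 bases miR-23a-3p and miR-23b-3p are the same sequence, and reads that match both were counted for each. The median of the 10 neuronal miRNAs was 18.4%, beside 21.2% over all 283.

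Shares varied with the length and the last base of the reference. A loss is counted from that last base, so these features are not independent of the share. The median share was 5.28% in 10 references of 20 bases or less and 8.08% in 58 of 21 bases. It was 21.7% in 151 of 22 bases, 36.9% in 49 of 23 bases and 71.7% in 15 of 24 or more. References that ended in T had a median of 15.4% (104 miRNAs), those in G 24.6% (58), those in C 25.5% (55) and those in A 32.2% (66). Arms of the hairpin differed less, with medians of 22.3% for 132 5p miRNAs and 16.4% for 130 3p miRNAs. These are descriptions over miRNAs, which are not replicates, and length, end and family overlap. After shortening, 56.4% ± 3.84 of the reads ended in T, 27.1% ± 1.41 in G, 12.3% ± 1.97 in C and 4.23% ± 0.990 in A (SD, n = 20), against 74.3% ± 2.50, 6.60% ± 1.30, 6.82% ± 0.972 and 12.2% ± 1.74 of full-length reads. Counted once each, the 1146 shortened isomiRs ended in T in 29.5% and in A in 18.6%.

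The first question was whether housing changed shortening as a whole, and the pooled share did not differ beyond its spread. It was 26.9%, 28.3%, 28.1%, 27.5% and 28.8% in GH males 16, 19, 18, 20 and 21, and 28.5%, 27.2%, 27.5%, 28.6% and 27.1% in SI males 15, 19, 22, 17 and 20. The groups overlapped, with means of 27.9% and 27.8% (difference −0.13 percentage points, exact permutation test, two-sided, p = 0.82). Among the females the pooled share was 27.3%, 28.2%, 29.8%, 27.1% and 28.4% in GH rats 15, 12, 16, 13 and 17, and 27.8%, 28.3%, 27.7%, 27.4% and 28.0% in SI rats 14, 10, 17, 12 and 16. These groups overlapped too (difference −0.29, exact p = 0.64), as did GH females and GH males (difference 0.20, exact p = 0.75). The GH rats serve in the comparison of the sexes and in those of housing, which are therefore not independent.

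The median over 283 miRNAs, in which no abundant miRNA decides the value, was 20.3% ± 0.841 in GH females and 21.5% ± 0.583 in SI females (SD, n = 5 each, exact permutation test, two-sided, p = 0.024). It lay between 19.3% and 21.3% in GH females and between 20.6% and 22.2% in SI females, so the groups overlapped. In males it was 20.9% ± 1.06 and 20.6% ± 1.28 (exact p = 0.68), and GH females and GH males differed by −0.63 points (exact p = 0.33). With all reads of the miRNA as the denominator the female difference turned to −0.92 points (exact p = 0.25).

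Reads that had lost 3 bases were at 3.19% ± 0.113 of shortened reads in SI males against 3.58% ± 0.281 in GH males (exact permutation test, two-sided, p = 0.024), and stood at 3.22% ± 0.400 against 3.64% ± 0.326 in females (exact p = 0.11). SI females had 2.31 ± 0.345 shortened reads per extended read and GH females 2.01 ± 0.0653 (exact p = 0.040). SI female 16 stood at 2.88, and without it the SI females had a mean of 2.16 and the difference went from 0.29 to 0.15 (exact p = 0.071). With every library thinned to the same number of reads, 578 ± 95.0 shortened isomiRs were listed in SI females and 740.0 ± 91.4 in GH females (exact p = 0.032, or 0.056 without SI female 16), and 607 ± 67.8 and 700.2 ± 77.5 in SI and GH males (exact p = 0.071). None of the 27 tests on single values passed the Benjamini-Hochberg adjustment (lowest adjusted p = 0.27), and the smallest exact p that 5 rats against 5 can give is 0.0079.

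Single miRNAs did differ between housing groups in males. Each miRNA was tested for the odds that a read was shortened, with edgeR's quasi-likelihood test on the shortened and other counts of each library, so that the level of the miRNA does not enter. Of 283 miRNAs, 8 passed in SI against GH males (2.83%), and all 8 had a higher share in SI males. With each rat left out in turn the count ran from 2 to 14. miR-676 and miR-99a-5p passed in all 20 of these fits, and the other 6 in 10 (miR-23a-3p) to 14 of them. Leaving out a female hardly changes a male log2 odds ratio and acts mainly through the shared estimate of the spread. The other 6 were lost more often when a male was left out. Without GH male 16, 18 or 19 or SI male 17 or 20, only miR-676 and miR-99a-5p passed. At an unadjusted p under 0.05 there were 37 (13.1%), of which 24 were higher. The SI and GH males did not overlap in 14 miRNAs that were higher (4.95%) and 6 that were lower (2.12%) in SI rats, and the 8 that passed were among the 14. The median log2 odds ratio over all 283 was 0.01.

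miR-676, a little-studied miRNA within the gene Eda, rose most firmly. Its share was 76.2%, 80.1%, 81.2%, 82.3% and 83.2% in GH males, and 87.8%, 89.8%, 91.8%, 92.1% and 94.4% in SI males. Every SI male lay above every GH male, and the log2 odds ratio was 1.35 ± 0.24 (SE, adjusted p = 0.0050). In females the ranges were 76.3% to 82.9% and 78.8% to 87.2%, with a log2 odds ratio of 0.02 ± 0.24. Within miR-676 the form without TA went from 28.2% to 37.2% of reads between GH and SI males, the form without A from 50.4% to 49.7%, and full-length reads from 15.8% to 7.38%.

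miR-99a-5p, a relative of miR-100 that is known to target mTOR, had shares of 50.003%, 50.7%, 51.8%, 54.9% and 55.8% in GH males and 59.2%, 61.8%, 64.8%, 64.8% and 68.7% in SI males. Again the groups did not overlap (log2 odds ratio 0.67 ± 0.13 SE, adjusted p = 0.0092). The form without G accounted for the shift, at 49.6% and 60.9% of reads. On the count scale both forms were lower in SI males, by a log2 fold change of −1.42 ± 0.39 for full-length reads and −0.75 ± 0.33 for the form without G, and neither passed the test over all isomiRs (adjusted p = 0.26 and 0.49).

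miR-181a-5p, which tunes signalling thresholds in T cells and is abundant in brain, had shares of 63.3%, 64.1%, 67.1%, 68.6% and 69.3% in GH males and 71.7%, 74.1%, 77.2%, 77.2% and 79.8% in SI males, with no overlap (log2 odds ratio 0.68 ± 0.16 SE, adjusted p = 0.030). Longer losses moved up within it, since the form without AGT went from 8.64% to 13.5% and that without GT from 37.7% to 45.6%, while the form without T went from 20.1% to 16.9%. In females the shares ran from 56.9% to 67.7% in GH and from 67.0% to 78.0% in SI rats, with a log2 odds ratio of 0.56 ± 0.16 that did not pass (adjusted p = 0.11). For miR-181b-5p, with the same seed and the same lost bases, the ratio was 0.23 ± 0.16 in males and 0.50 ± 0.16 in females, neither of which passed (adjusted p = 0.60 and 0.18).

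miR-26a-5p, which is common in differentiated neurons and glia, was the most read of the 8. Its share was 6.49%, 8.58%, 8.95%, 9.18% and 11.9% in GH males and 12.7%, 12.7%, 14.1%, 14.6% and 15.6% in SI males, without overlap, on 176760 to 590856 reads per male library (log2 odds ratio 0.73 ± 0.18 SE, adjusted p = 0.034). GH females ranged from 6.08% to 12.3% and SI females from 8.60% to 12.4%. let-7i-5p rose by a smaller step, from 13.04%, 13.8%, 14.3%, 14.9% and 15.6% to 16.7%, 16.8%, 17.6%, 17.6% and 17.7% (log2 odds ratio 0.32 ± 0.08, adjusted p = 0.038), and it was the only let-7 member of 9 to pass.

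miR-125b-2-3p, the passenger strand of a miR-125b hairpin, had shares of 26.2%, 26.7%, 28.6%, 31.5% and 32.3% in GH males and 37.4%, 38.1%, 41.5%, 49.3% and 50.6% in SI males (log2 odds ratio 0.90 ± 0.22 SE, adjusted p = 0.034). miR-384-3p had 15.6%, 22.2%, 23.3%, 23.3% and 23.5% against 28.6%, 28.7%, 29.8%, 31.0% and 39.7% (0.75 ± 0.19, adjusted p = 0.038). miR-23a-3p, found in vessels and many other cells, had 2.13%, 2.71%, 4.04%, 4.08% and 5.24% against 5.31%, 6.37%, 6.89%, 8.01% and 10.1% (1.10 ± 0.29, adjusted p = 0.038). With only reads that match a single miRNA, the log2 odds ratio of miR-23a-3p was 1.446 (edgeR's quasi-likelihood test, adjusted p = 0.033). In each of these 3 miRNAs the groups did not overlap.

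The 8 miRNAs had little in common as sequences. They carry 8 different seeds, and the bases lost in the main shortened form were T in 3 of them, a single A, G or C in 1 each, and GT and AT in the other two. Their mean shares over all libraries ran from 4.70% (miR-23a-3p) to 83.2% (miR-676). Beside 2.83% of all 283, the miR-181, miR-23/27/24, miR-99/100 with miR-125, and let-7 lists had 1 each of their 4, 5, 5 and 9 measured members called, namely miR-181a-5p, miR-23a-3p, miR-99a-5p and let-7i-5p from the 8. The neuronal, oligodendrocyte, and endothelial and mural lists had 0 called of 10, 3 and 4.

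In females 1 of 283 miRNAs passed (0.353%), and 20 did at an unadjusted p under 0.05 (7.07%), of which 14 were higher in SI rats. The groups did not overlap in 5 miRNAs that were higher (1.77%) and 1 that was lower (0.353%). The miRNA that passed was miR-129-5p, a neuronal miRNA known for targeting potassium channel mRNA, with shares of 15.8%, 17.5%, 17.6%, 17.7% and 18.4% in GH females and 19.4%, 20.8%, 23.3%, 26.4% and 26.5% in SI females. Every SI female lay above every GH female (log2 odds ratio 0.52 ± 0.11 SE, adjusted p = 0.027), and the form without C went from 13.98% to 19.4% of reads. GH males had 18.9% to 22.3% and SI males 19.5% to 24.1%, with a log2 odds ratio of 0.19 ± 0.11 (adjusted p = 0.45). Every GH female thus also lay below every GH male, while SI females overlapped GH males.

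The next miRNAs in females had large ratios that did not pass. They were miR-22-3p with 1.28 ± 0.31 (adjusted p = 0.069), miR-361-5p with 1.05 ± 0.26 (0.069) and miR-124-3p with 0.78 ± 0.21 (0.091), all by edgeR's quasi-likelihood test. miR-22-3p ranged from 9.14% to 17.5% in GH and from 15.5% to 42.5% in SI females, and from 11.9% to 19.4% in GH and 22.8% to 31.8% in SI males, where its ratio of 0.97 ± 0.30 did not pass either (adjusted p = 0.092). miR-361-5p separated the female groups, at 9.28% to 15.4% and 21.9% to 30.7%. miR-124-3p did so as well, at 81.1% to 90.2% and 90.7% to 94.9%.

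Whether the sexes differed in their response was tested as an interaction of housing and sex. None of 283 miRNAs passed (0%) and 16 did at an unadjusted p under 0.05 (5.65%), so the calls in males are not shown to be particular to males. The lowest p belonged to miR-676 (difference of the log2 odds ratios −1.33 ± 0.33 SE, adjusted p = 0.23). SI female 17, one of the rats whose sex is given in both ways, had 87.2% where the other 4 SI females had 78.8% to 79.0%. Without this rat miR-676 passed (−1.50, edgeR's quasi-likelihood test, adjusted p = 0.035). No miRNA passed the interaction in any other fit, including that with the 2 rats numbered 17 exchanged. All 8 miRNAs that passed in males had log2 odds ratios above 0 in females too, from 0.02 (miR-676) to 0.56 (miR-181a-5p). Of the 37 miRNAs with an unadjusted p under 0.05 in males, 33 had the same sign in females, beside 181 of all 283. Over the 165 well-read miRNAs the male and female log2 odds ratios had Pearson's r = 0.36 and Spearman's rho = 0.41 across miRNAs, from rats that the contrasts do not share. GH females and GH males differed in no miRNA by the adjusted p (0%) and in 3 at an unadjusted p under 0.05 (1.06%). These 3 were miR-129-5p, miR-124-3p and miR-181b-5p, all with lower shares in GH females. The same GH females serve in the female housing contrast, so their low shares enter both comparisons. How far the higher shares of these 3 miRNAs in SI females rest on low shares in GH females was not tested.

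The 2 libraries with the lowest shares of extended reads bear on these counts unequally. Without SI female 16 and SI male 17, 8 miRNAs passed in males, of which 7 were among those above, with miR-143-3p in place of miR-23a-3p. In females none passed without them. With the libraries of the 2 rats numbered 17 exchanged, miR-676 (log2 odds ratio 1.275, adjusted p = 0.032) and a lower share of miR-7a-5p passed in males, while miR-129-5p, miR-181a-5p, miR-181b-5p, miR-22-3p and miR-361-5p passed in females with higher shares in SI rats.

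As counts rather than shares, shortened isomiRs were tested among all isomiRs. Of 1146, 747 had at least 10 counts in at least 5 libraries, and edgeR's quasi-likelihood test called 0 of them in males, where it called 1 of all 10290 isomiRs (0.00972%), 0 in females (0% of all) and 0 between GH females and GH males (0% of all). DESeq2's Wald test called 26 shortened isomiRs in males and 17 in females. Over all isomiRs it called 152 of the 2100 to which it gave an adjusted p in males (7.24%), and 101 of 7479 in females (1.35%). How many of the 2100 and 7479 were shortened was not counted, so 26 and 17 cannot be set against these percentages. DESeq2 called 0 shortened isomiRs between GH females and GH males (0.0389% of all). At an unadjusted p under 0.05 edgeR had 106 shortened isomiRs in males (14.2%, beside 9.11% of all isomiRs), 104 in females (13.9%, beside 9.22%) and 16 between GH females and GH males (2.14%, beside 1.66%). Of these, 31 were higher and 75 lower in SI males, and 31 higher and 73 lower in SI females. The median log2 fold change of the 747 was −0.18 in males and −0.36 in females, beside −0.05 and −0.12 over all isomiRs.

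None of the shortened isomiRs named next passed edgeR's adjustment. In males the lowest p belonged to miR-434-3p without its final T, from the imprinted cluster on chromosome 6, at 8405 ± 1309 normalised counts in GH and 16143 ± 5406 in SI males (log2 fold change 0.94 ± 0.20 SE, adjusted p = 0.17). Its ranges of 7111 to 10517 and 12833 to 25720 did not overlap. miR-338-5p without G stood at 6839 ± 1036 and 13248 ± 2184 (0.95 ± 0.24, adjusted p = 0.22), and miR-134-5p without G, a miRNA known for acting at dendritic spines, at 233 ± 84.8 and 550 ± 165 (1.24 ± 0.29, adjusted p = 0.22). Lower values in SI males were found for miR-22-3p without GT (−0.92 ± 0.23), miR-300-3p without TC (−1.39 ± 0.35) and miR-127-5p without T (−1.67 ± 0.43). miR-22-3p therefore had fewer reads without GT and a higher shortened share in SI males, and neither difference passed. The sum of its shortened reads was not tested.

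In females the lowest p belonged to miR-129-5p without C, at 7240 ± 1975 normalised counts in GH and 14303 ± 5052 in SI rats (log2 fold change 0.98 ± 0.22 SE, adjusted p = 0.32). miR-6331 without GC stood at 1566 ± 403 and 2744 ± 678 (0.81 ± 0.21), and both pairs of ranges were apart, at 5562 to 9592 and 11237 to 23113 for miR-129-5p and 1163 to 2115 and 2156 to 3902 for miR-6331. Lower values in SI females were found for miR-181a-5p without T (−0.99 ± 0.25), miR-24-3p without AG (−1.44 ± 0.39) and miR-24-2-5p without T (−1.49 ± 0.41), with the same adjusted p of 0.32. miR-653-5p without C was listed at 8.80 to 156 normalised counts in GH females and at 0 in all 5 SI females. It was at 0 to 51.8 in GH males and 0 to 36.0 in SI males, so it met the count filter mostly through GH rats. Sequences read once were not listed, so a 0 does not show absence. Between GH females and GH males miR-1843a-3p without A (−0.70 ± 0.24) and miR-129-5p without C (−0.58 ± 0.22) were among the 6 with the lowest p, and the other 4, forms of miR-6324, miR-350, miR-1843b-3p and miR-6329, were at 0 in every rat of one of these groups. In the other group the means of these 4 forms were only 13.4 to 44.6 normalised counts.

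The study's own isomiR lists held 31 shortened forms, 2 for males and 29 for females, which were chosen on these samples and are not independent evidence. Both male forms, of miR-434-3p and miR-300-3p, and 27 of the 29 female forms had an unadjusted p under 0.05 in the same sex here, and none passed edgeR's adjusted p. The paper names DESeq2 for its differential expression, so the tests are unlike. How many of the 31 forms DESeq2 called here was not counted. In females 7 of the 29 were higher and 22 lower in SI rats, with log2 fold changes from −2.66 to 0.98. In males 27 of the 29 female forms had the same sign, and 19 had an unadjusted p under 0.05.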

How the data were processed

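Small RNA from adBNST punches of 20 rats was measured. Per the paper's methods, the authors trimmed adapters, polyA tails and low-quality ends with cutadapt, checked reads with FastQC and aligned them to rat miRBase with seqbuster within bcbio-nextgen. The labels also name STAR, which served for genome alignments that are not used here. The deposited values are raw counts of reads per distinct sequence, with its miRNA and its differences from the reference. The lowest listed count was 2, so sequences read once are missing. Trimming sets the 3′ end of a read, so it enters every shortened share, and its effect was not tested. Per the paper, female samples were picked for high RNA integrity and a range of estradiol levels, and no such choice is stated for males. The part of RNA integrity in the shares, also between the sexes, was not tested.

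Reads that matched several miRNAs were counted for each, and names with identical reads were joined (566 names gave 560 measurements). Shares were tested for 283 miRNAs with a mean of at least 100 reads of the denominator, by edgeR 4.0.16 in R 4.3.3 with library terms and 4 group terms over all 20 libraries. Every isomiR that reached 10 counts in 5 or more libraries was tested with TMM normalization and the same groups. p-values were adjusted by Benjamini-Hochberg within each contrast, over every feature tested, with a threshold of 0.05. Single values were compared by exact permutation tests, two-sided, over 252 assignments. DESeq2 1.42.0 and limma 3.58.1 served as alternatives, and Python 3.11.15 with pandas, numpy and scipy for the rest. When tested on simulated data, the share fit called most features made to differ and the isomiR fit few. The share simulation gave every miRNA the same spread between libraries, set beforehand, while the isomiR simulation used spreads estimated from the data. The log2 odds ratios simulated for the share were larger than those of most miRNAs called here. The share simulation therefore does not show how often smaller differences are found. The outcomes of the simulations are therefore not comparable. A count of 0 from the isomiR fit does not show that counts were equal. Standard errors were derived from the log2 effect and its F statistic.

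Named were the 10 most read miRNAs, the 10 highest and 5 lowest shares at a mean of at least 1000 reads, up to 6 with the lowest p in each contrast, the study's listed forms by counts, and family examples. Members and lists were chosen with earlier results of these data known. p-values measure the spread between rats, and reads carry no molecular identifiers, so depth (3436585 to 11406397 reads) limits counting error only. The tests treat all rats as independent. GH rats shared cages with littermates while SI rats lived alone, and cage and litter are not given, so their part was not tested. Sequences and coordinates are credited to the deposited reads and to RefSeq of GRCr8.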

Additional observations from a re-analysis of the deposited data

Results flagged for a closer look

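In 108 groups of 5 rats (9 values per library and the shares of the most read miRNAs and of those that passed a test), 7 held a rat whose gap to its nearest neighbour exceeded 0.71 of the range of the group, Dixon's limit. Chance flags about 1 in 20 groups. let-7a-5p was at 22.7% in GH male 16, against 24.6% to 25.3% in the other GH males, and at 24.8% in SI female 12, against 26.4% to 27.03% in the other SI females. miR-125b-5p was at 56.0% in SI male 17, against 45.8% to 46.4% in the other SI males. miR-676 was at 87.2% in SI female 17, against 78.8% to 79.0% in the other SI females. miR-384-3p was at 15.6% in GH male 16, against 22.2% to 23.5%, and at 39.7% in SI male 15, against 28.6% to 31.0%. miR-129-5p was at 19.5% in SI male 20, against 22.9% to 24.1%. The labels and deposited names of the 2 SI rats numbered 17 give opposite sexes, and both appear among these values.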

How the results depend on the processing

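Sides of the threshold refer to the adjusted p for counts of calls and to the unadjusted exact p for single values. The pooled difference between SI and GH males, −0.13 points, turned to 0.14 with all reads as denominator and to 0.0787 without the most read miRNA. The median difference in males, −0.32, turned to 0.12 after thinning, to 0.64 at a mean of at least 1000 reads and to 0.90 in the 2 pairs of a replicate block. The median difference in females, 1.29, turned to −0.92 with all reads as denominator, and lost its exact p under 0.05 at a mean of at least 1000 reads (1.31) and in the replicate block of 3 pairs (1.01, exact p = 0.25, the smallest 3 pairs can give). Leaving out each rat in turn gave −0.39 to 0.0783 points for the pooled share in males, −0.55 to 0.12 in females and −0.20 to 0.47 between GH females and GH males, and for the median share −0.84 to 0.0398, 1.05 to 1.56 and −0.90 to −0.27.

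The 8 miRNAs called in males became 5 with limma (4 shared, and miR-192-5p lower), 4 without a filter, and 2 with the I17 libraries exchanged. Leaving out each rat gave 2 to 14 calls, with 2 without GH male 16, 18 or 19 or SI male 17 or 20, 3 without SI male 15, 4 without GH male 21 and 14 without SI female 16. The call in females became 0 with limma, with only the groups compared and without I16F and I17M (chosen after seeing the data), 3 at a mean of at least 1000 reads and 5 with the I17 libraries exchanged. It ranged from 0 to 3 over the rats left out, being 0 without GH female 15, 16 or 17 or SI female 12, 14 or 16. The interaction ranged from 0 to 1 and GH females against GH males stayed at 0. No log2 odds ratio of the 9 called miRNAs changed sign in any fit.

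Shortened isomiRs called in males rose from 0 to 8 with only the groups compared, 26 with DESeq2, 6 at 10 counts in every library, 1 without I16F and I17M, and 0 to 7 over the rats left out (7 without SI female 16). In females they rose from 0 to 17 with DESeq2. Over all isomiRs DESeq2 called 152 in males and 101 in females. For the other fits the calls over all isomiRs were not counted. These counts therefore do not show whether shortened isomiRs changed more than others. The replicate block, fitted with limma on the 2 or 3 shared numbers, left 0 miRNAs called in males and 0 in females. Same-numbered rats deviated together with correlations of −0.10 and 0.09 in males and 0.18, 0.12 and −0.10 in females, so the numbers were not taken as pairs, and the same rats without the block, added after seeing the data, called 1 in males and 3 in females, none of them among the 9 miRNAs above. A limit of 3 lost bases changed nothing, since no listed loss was longer.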
